A study of Homo sapiens with 26 samples.

Results

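Of 155652 FOXA1 peaks in BJ cells, 1294 (0.831%) shared at least 1 bp with a peak of HNF4A and at least 1 bp with a peak of FOXA1dbd, and these shared peaks are described here. They were selected on their presence in 3 deposited peak lists of the series, so that presence, and the scores in those lists, are given as a description with no test. BJ is an established line of human foreskin fibroblasts. Proteins carrying a HALO tag were expressed ectopically for 48 hours, and the DNA they occupied was recovered by chromatin immunoprecipitation with an antibody to the tag and sequenced (ChIP-seq). The groups used are FOXA1, the FOXA1 variants that the labels call FOXA1dbd, FOXA1nhaa and FOXA1rraa, and HNF4A, each with 2 ChIP and 2 input libraries in the labels and 1 peak list analysed here. The labels do not say what the variants change, and the samples of tagged H2B histone were not analysed here. Neither factor's own expression in these cells can be read from peak lists. Because every construct has a single list, no replicate error is known and no test across samples was made. Intervals in parentheses are 95% Wilson intervals over peaks, those of differences are Newcombe intervals, and both cover counting error only.

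FOXA1 is a forkhead transcription factor whose winged-helix domain can bind its site on nucleosomal DNA, and it is known as a pioneer factor of endoderm and liver. HNF4A is a nuclear receptor that binds direct repeats of a short half-site and is a central regulator of hepatocyte genes. The factors occupy many of the same regulatory regions in liver, whereas fibroblasts are a cell type in which neither is a lineage factor. AP-1, a dimer of Jun and Fos family proteins, and TEAD factors, the DNA-binding partners of YAP, occupy enhancers in fibroblasts.

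The sequences below come from the GRCh37 reference, plus strand, and show how motif letters were arranged at shared peaks. Capitals mark matches to the forkhead core (TGTTTAC or TATTTAC), the HNF4 half-site (AGGTCA), the HNF4 core (CAAAGTCCA) or the AP-1 site (TGACTCA, which reads TGAGTCA on the other strand). All were searched on both strands, and positions are counted from 1 at the first base printed. The first is the shared peak with the highest FOXA1 score, in an AXL intron (chr19:41731472-41731671), with an AP-1 site at positions 137 to 143.
AXL intron: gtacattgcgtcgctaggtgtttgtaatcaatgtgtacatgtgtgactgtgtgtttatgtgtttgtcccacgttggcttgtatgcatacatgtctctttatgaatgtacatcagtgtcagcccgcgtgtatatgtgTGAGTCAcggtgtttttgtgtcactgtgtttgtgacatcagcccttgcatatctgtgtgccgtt
The next is the shared peak that ranked highest in the lowest of its 3 lists, between genes near EVA1A (chr2:75830090-75830289). It held no forkhead, HNF4 or AP-1 match.
near EVA1A: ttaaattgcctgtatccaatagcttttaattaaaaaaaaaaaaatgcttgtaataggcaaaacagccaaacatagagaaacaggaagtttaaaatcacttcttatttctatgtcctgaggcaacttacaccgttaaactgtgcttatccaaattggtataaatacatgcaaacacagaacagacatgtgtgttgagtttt
The window near ADGRL2 (chr1:81645097-81645296) had the highest FOXA1 score among those holding forkhead, half-site and AP-1 matches. Its forkhead core lay at positions 22 to 28 and its first half-site at positions 36 to 41.
near ADGRL2: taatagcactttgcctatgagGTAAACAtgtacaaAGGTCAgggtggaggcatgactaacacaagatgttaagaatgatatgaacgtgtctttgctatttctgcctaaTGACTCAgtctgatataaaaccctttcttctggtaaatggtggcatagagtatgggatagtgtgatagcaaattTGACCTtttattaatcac
The PARP15 intron (chr3:122337948-122338147) held a forkhead core at positions 118 to 124 and an HNF4 core at positions 158 to 166.
PARP15 intron: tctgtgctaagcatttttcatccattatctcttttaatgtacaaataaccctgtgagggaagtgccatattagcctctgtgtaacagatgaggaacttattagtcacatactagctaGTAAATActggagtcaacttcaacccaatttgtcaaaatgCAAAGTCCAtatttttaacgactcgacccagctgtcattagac
The ALG9 intron (chr11:111710957-111711238) is shown because each of its summits had its own motif. The half-site at positions 19 to 24 lay near the HNF4A summit at position 56, and the forkhead core at positions 248 to 254 lay near the FOXA1dbd summit at position 227.
ALG9 intron: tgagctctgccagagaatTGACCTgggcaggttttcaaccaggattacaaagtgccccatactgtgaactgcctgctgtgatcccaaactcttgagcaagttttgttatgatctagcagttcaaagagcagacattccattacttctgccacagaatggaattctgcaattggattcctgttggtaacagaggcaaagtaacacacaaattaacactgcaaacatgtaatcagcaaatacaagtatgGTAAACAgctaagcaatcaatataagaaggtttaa

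The selection gave the following values. HNF4A overlapped 1.68% of all FOXA1 peaks and FOXA1dbd overlapped 17.3%. The shared peaks used 1303 HNF4A rows, or 3.403% of that list, and 1354 FOXA1dbd rows, or 4.70%. FOXA1 peaks overlapped by HNF4A and not FOXA1dbd numbered 1315, those overlapped by FOXA1dbd and not HNF4A numbered 25661, and 127382 were overlapped by neither. The overlap was thin in some shared peaks. The FOXA1 row in an intron of DST (chr6:56392743-56393247) shared 1 bp with its HNF4A row, and the rows in DNAJC11 (chr1:6745870-6746492) and DNAJC6 (chr1:65861110-65861730) and near ATP8B1 (chr18:55513323-55513706) shared 2 bp. In all, 22 shared peaks had 10 bp or less of overlap with one of the lists and 146 had 50 bp or less. Just outside the rule, 95 FOXA1 peaks with FOXA1dbd had an HNF4A row within 50 bp, 2 of them at a gap of 0 bp. The FOXA1 peaks with HNF4A had no FOXA1dbd row nearer than 105 bp.

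The 3 factors did not rank the shared peaks alike. The authors' FOXA1 score ran from 22 through a median of 166 to 751, and the median of the whole FOXA1 list was 124. The HNF4A rows had a median −log10 q of 10.5 and a median fold enrichment of 5.75, beside 9.93 and 5.92 in the whole HNF4A list. The FOXA1dbd rows had medians of 6.92 and 5.41, beside 6.20 and 5.18. Ranks in the FOXA1 and HNF4A lists had a Spearman correlation of -0.02 over the 1294 peaks, those in FOXA1 and FOXA1dbd 0.18, and those in HNF4A and FOXA1dbd 0.03. These correlations are over peaks of single lists and carry no test. The highest-ranking FOXA1dbd row carried the prefix IP1 in 1194 shared peaks (92.3%), IP3 in 81 and WT_FOX in 19.

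Within a shared peak the FOXA1dbd signal sat near the middle of the FOXA1 peak and the HNF4A signal often beside it. The FOXA1dbd summit was a median of 53.5 bp from the FOXA1 midpoint (quartiles 25 and 108 bp), and the HNF4A summit 151 bp (quartiles 74 and 238 bp). The FOXA1dbd summit, or the midpoint used in its place, lay inside the FOXA1 row in 1292 shared peaks. For HNF4A this held in 811 (62.7%). In all these distances the row midpoint stood in for a summit beyond its own row. The deposited summit was inside its row in 1175 shared peaks for FOXA1dbd and in 1285 for HNF4A. FOXA1dbd rows lay wholly inside their shared FOXA1 peak in 1341 of 1354 cases, and 160 shared peaks had a FOXA1dbd row with the coordinates of the FOXA1 row itself, so the 2 positions are not independent. The distance between the HNF4A and FOXA1dbd summits had a median of 136 bp, with quartiles of 60 and 226 bp. It was at most 50 bp in 282 shared peaks (21.8%), at most 100 bp in 504 (38.9%) and at most 200 bp in 899 (69.5%). The HNF4A and FOXA1dbd rows overlapped each other in 1143 shared peaks (88.3%).

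**Figure D1:**
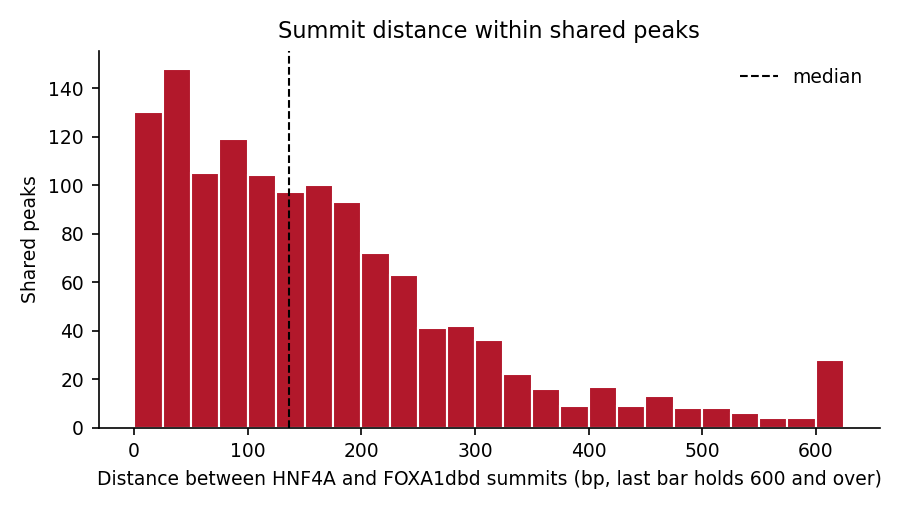
Distance in bp between the HNF4A and the FOXA1dbd summit (horizontal) against the number of shared peaks (vertical), in bars of 25 bp, the last holding distances of 600 bp and over. The dashed line is the median of 136 bp, and the shortest distances are the most common.

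AP-1 letters were more frequent in the shared peaks than in each set they were compared with. In the central 200 bp of the FOXA1 row, 345 of 1294 shared peaks (26.7%, 24.3 to 29.1) held an AP-1 site. The share was 16.3% (14.5 to 18.4) in FOXA1 peaks with HNF4A and not FOXA1dbd, 15.0% (14.6 to 15.4) in those with FOXA1dbd and not HNF4A, and 7.99% in all FOXA1 peaks. The differences from the first and the second of these classes were 10.3 (7.17 to 13.4) and 11.7 (9.29 to 14.2) percentage points. TEAD letters (GGAATG) were in 20.4% (18.3 to 22.7) of shared peaks, beside 17.6%, 13.3% and 11.9% in the same order. The TEAD difference from the peaks with HNF4A and not FOXA1dbd was 2.83 points with an interval from -0.17 to 5.84, so it was not resolved by counting error. RUNX letters (TGTGGT) were in 15.7% of shared peaks and 13.2% of all FOXA1 peaks, with 15.4% in the class with HNF4A and not FOXA1dbd. Shares are given with no replicate error, and motif matches are descriptions of sequence, not of occupancy.

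Forkhead letters were less frequent in the shared peaks as a whole. A forkhead core lay in 177 shared peaks (13.7%, 11.9 to 15.7), beside 17.3% (15.4 to 19.5), 21.5% (21.05 to 22.05) and 18.2% in the 3 comparison sets. The difference from the FOXA1 peaks with FOXA1dbd and not HNF4A was -7.87 points (-9.70 to -5.83), and that from those with HNF4A and not FOXA1dbd was -3.66 points (-6.43 to -0.88). In the 286 shared peaks that rest on the top 50% of each list the forkhead share was 20.6% (16.3 to 25.7). That interval holds the 18.2% of all FOXA1 peaks, and the comparison sets were not cut by score. The HNF4 half-site was in 152 shared peaks (11.7%, 10.1 to 13.6). It was in 10.3% of the peaks with HNF4A and not FOXA1dbd, a difference of 1.40 points (-1.005 to 3.82), in 6.60% of those with FOXA1dbd and not HNF4A, a difference of 5.15 points (3.48 to 7.04), and in 6.19% of all FOXA1 peaks. These windows are centred on the FOXA1 midpoint, and in 200 bp around the HNF4A summit the half-site was in 21.5% (19.3 to 23.8) of shared peaks. The full HNF4 core was rare, in 10 shared peaks (0.773%) beside 0.261% of all FOXA1 peaks. The class with HNF4A and not FOXA1dbd held it in 0.684%, a difference of 0.088 points (-0.617 to 0.809). None of the forkhead core, the half-site, the HNF4 core and the AP-1 site was found in the midpoint window of 705 shared peaks (54.5%), as near EVA1A above. AP-1 and forkhead letters stood together in 39 shared peaks (3.01%), and forkhead letters with a half-site or HNF4 core in 23 (1.78%). These combinations, and the peaks with none of the motifs, were counted in the shared peaks only. They are therefore not set against other FOXA1 peaks.

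**Figure D2:**
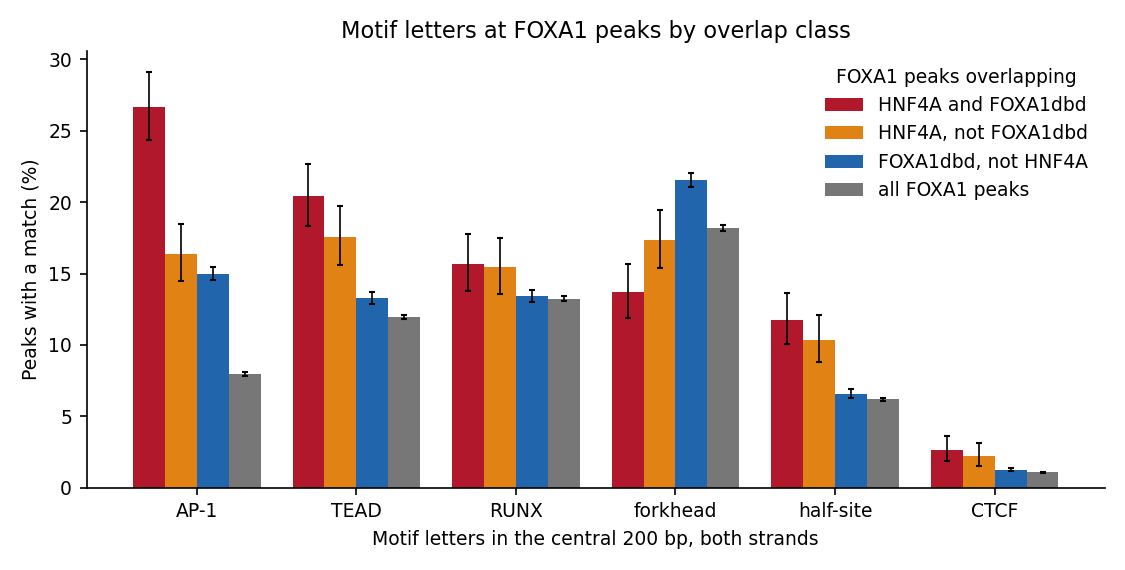
Share of FOXA1 peaks (%, vertical) with each motif in the central 200 bp, in 4 sets of FOXA1 peaks named by what overlaps them, with 95% Wilson intervals. AP-1 is at 26.7% in the peaks shared with HNF4A and FOXA1dbd and at 7.99% in all FOXA1 peaks.

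The remaining motifs were searched in the same windows. The CTCF letters CCACNAGG were in 34 shared peaks (2.63%, 1.89 to 3.65) and 1.08% of all FOXA1 peaks. In the class with HNF4A and not FOXA1dbd they were in 2.205% (1.54 to 3.149), an overlapping interval. The GC box GGGCGG of SP and KLF factors, a promoter element, was in 11 shared peaks (0.850%) and 0.283% of all FOXA1 peaks, while the class with HNF4A and not FOXA1dbd reached 2.81%. CCAAT, the NFY box, was in 25.9% of shared peaks, 26.46% of the class with HNF4A and not FOXA1dbd and 29.6% of all FOXA1 peaks. The ETS letters CCGGAAG were in 4 shared peaks (0.309%, background 0.118%), and the class with HNF4A and not FOXA1dbd held them in 0.76%. The CREB letters TGACGTCA were in 3 shared peaks (background 0.0430%). The NRF1 letters GCGCATGC were in 0 of 1294, which allows a share of up to 0.232%, above their background of 0.0495%. No motif searched contains another.

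Base composition differed between some of these sets. The median GC content of the central 200 bp was 38.5% in the shared peaks (quartiles 35% and 42.5%), 38.5% in the class with HNF4A and not FOXA1dbd, 33.5% in the class with FOXA1dbd and not HNF4A and 32.5% in all FOXA1 peaks. Bins of GC content were therefore compared, a step chosen after the data were seen. The AP-1 share of the shared peaks was 36.8% (32.1 to 41.8) between 40% and 45% GC, beside 24.6% (22.9 to 26.4) for FOXA1dbd and not HNF4A and 23.5% (19.0 to 28.6) for HNF4A and not FOXA1dbd. At 45% GC and above it was 38.1% (31.1 to 45.6), beside 22.7% and 24.2%. Below 40% GC the intervals of the shared peaks and the FOXA1dbd class overlapped, for instance 22.1% (18.4 to 26.3) and 19.8% (18.9 to 20.7) between 35% and 40%, and under 30% the shares were 6.85% and 6.92%. The class with HNF4A and not FOXA1dbd stood at 13.9% (10.8 to 17.7) between 35% and 40%, apart from the shared peaks. The forkhead share in the shared peaks declined from 27.4% under 30% GC to 8.93% at 45% and above. In the FOXA1dbd class it declined from 29.0% to 11.5%, and the intervals were apart in the bin from 35% to 40% only (12.6%, 9.75 to 16.0, and 17.2%, 16.3 to 18.1). The class with HNF4A and not FOXA1dbd showed no such decline, with 14.7% (9.12 to 22.8) under 30% GC, 16.5%, 18.1% and 19.1% in the next bins and 16.1% at 45% and above. Under 30% GC the forkhead share of the shared peaks (27.4%, 18.5 to 38.6) was thus above that class and above all FOXA1 peaks (21.5%), with overlapping intervals. From 35% GC upward it was below both, and there too the intervals overlapped in every bin. The part of GC content in the unbinned differences was not tested beyond these bins.

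**Figure D3:**
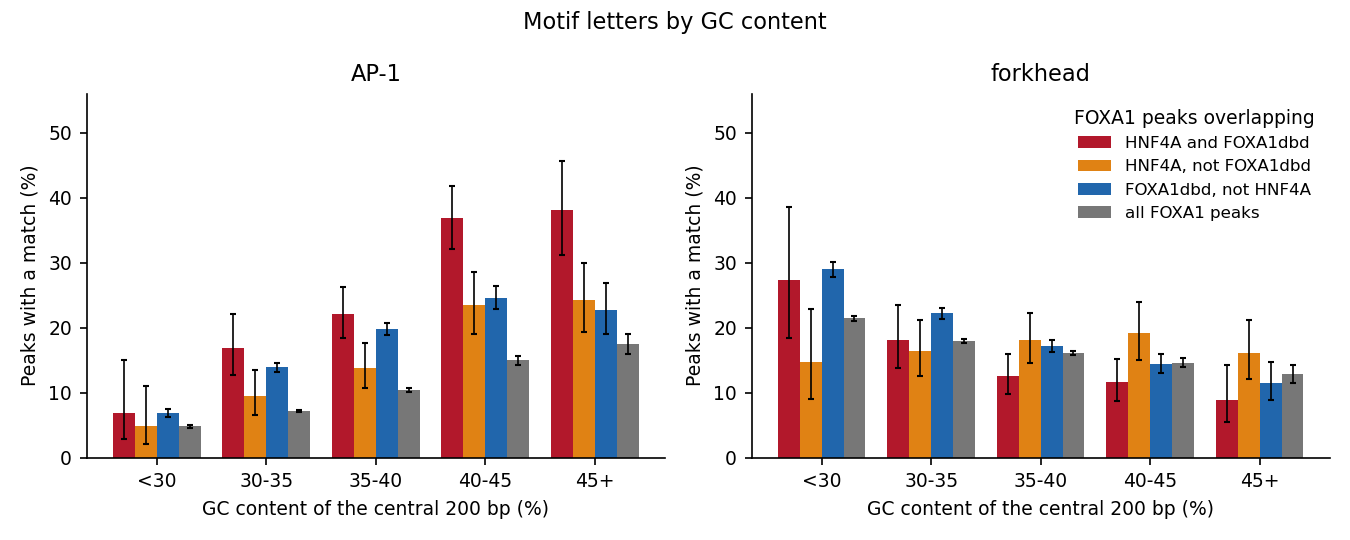
Share of FOXA1 peaks (%, vertical) with an AP-1 site (left) or a forkhead core (right) by GC content of the central 200 bp (%, horizontal), for 4 sets of FOXA1 peaks, with 95% Wilson intervals. From 40% GC upward the AP-1 share of the peaks shared with HNF4A and FOXA1dbd, 36.8% and 38.1%, stands above the other sets.

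Reversed letters, which keep the base composition of a motif, were counted in the same windows, also after the data were seen, leaving out any reversed match that overlapped the motif itself. Reversed AP-1 letters (ACTCAGT or ACTGAGT) were in 4.33% (3.35 to 5.58) of shared peaks, 2.74% (1.98 to 3.77) of the peaks with HNF4A and not FOXA1dbd, 3.28% (3.066 to 3.502) of those with FOXA1dbd and not HNF4A and 3.38% of all FOXA1 peaks. The differences of the shared peaks from the first and the second of these classes were 1.59 points (0.169 to 3.05) and 1.05 points (0.0448 to 2.32), beside 10.3 and 11.7 points for the AP-1 letters. As ratios to the same classes, the reversal stood at 1.58 and 1.32 and the AP-1 letters at 1.63 and 1.78, and no interval was made for a ratio. Reversed forkhead letters (CATTTGT or CATTTAT) differed by 0.611 points (-2.07 to 3.29) and -3.64 points (-5.51 to -1.57), beside -3.66 and -7.87 for the forkhead core. Reversed half-site letters (ACTGGA) differed by 1.29 points (-1.33 to 3.91) and 3.98 points (2.15 to 6.01), beside 1.40 and 5.15 for the half-site.

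Motif letters were placed differently around the summits of the same shared peaks. In the 1166 shared peaks whose HNF4A and FOXA1dbd summits both lay inside their rows, a half-site lay within 50 bp of the HNF4A summit in 166 (14.2%, 12.4 to 16.4) and within 50 bp of the FOXA1dbd summit in 71 (6.09%, 4.85 to 7.61). It was near the HNF4A summit alone in 136, near the FOXA1dbd summit alone in 41 and near both in 30. The forkhead core had the opposite placement, within 50 bp of the HNF4A summit in 56 (4.80%) and of the FOXA1dbd summit in 104 (8.92%), with 28 near the HNF4A summit alone, 76 near the FOXA1dbd summit alone and 28 near both. AP-1 sites were near the HNF4A summit in 16.2% (14.2 to 18.4) and near the FOXA1dbd summit in 18.2% (16.1 to 20.5), and TEAD letters in 12.5% and 12.2%. These distances were examined after the data were seen, and no test is given because the summits come from 1 list each. In 8 shared peaks a half-site lay near the HNF4A summit alone and a forkhead core near the FOXA1dbd summit alone. Whether 8 exceeds what the separate counts of 136 and 76 in 1166 would give was not tested, so these peaks are examples only. The ALG9 intron printed above was one, and an intron of MDM2, which encodes the ubiquitin ligase of p53, another, with summits 902 bp apart.

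**Figure D4:**
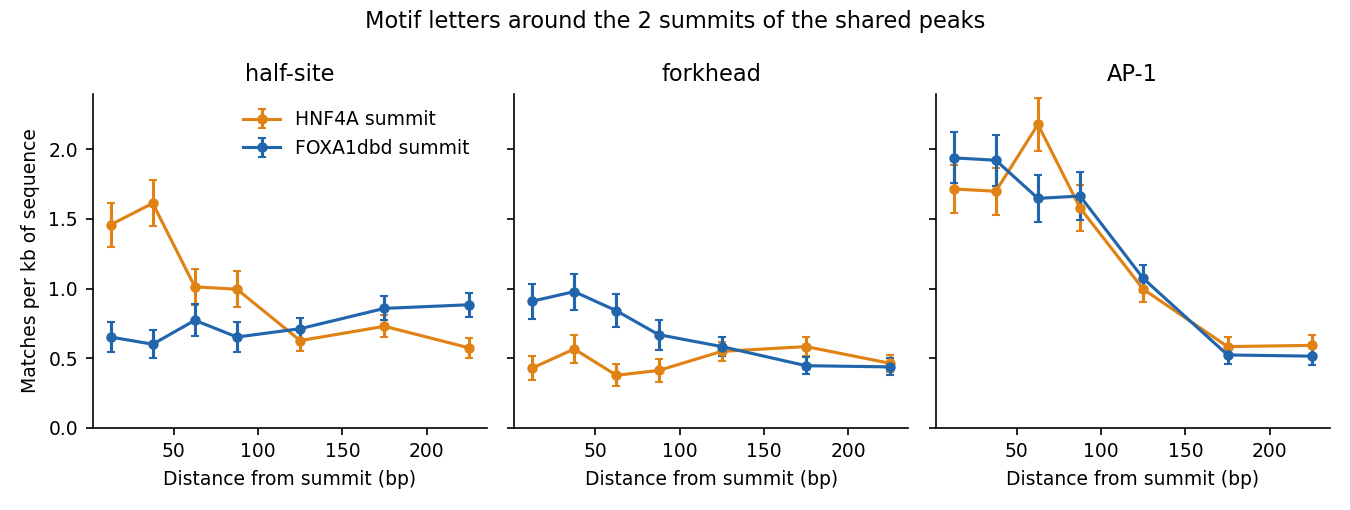
Matches per kb of sequence (vertical) against distance in bp from the HNF4A or FOXA1dbd summit (horizontal) in 1166 shared peaks, for the half-site, forkhead core and AP-1 site, with bars of 1 Poisson standard error. Half-sites reached 1.46 per kb within 25 bp and 1.61 per kb from 25 to 50 bp of the HNF4A summit, against 0.652 and 0.600 at the FOXA1dbd summit. Forkhead cores reached 0.909 and 0.978 at the FOXA1dbd summit, against 0.429 and 0.566 at the HNF4A summit.

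Motif letters at these summits were also compared with other peaks of each factor. Within 50 bp of the FOXA1dbd summit, a forkhead core was found in 8.92% (7.42 to 10.7) of shared peaks and in 14.9% (14.4 to 15.3) of the FOXA1dbd peaks in other FOXA1 peaks, whereas AP-1 sites were in 18.2% and 11.2% (10.8 to 11.6). Within 50 bp of the HNF4A summit, the half-site was in 14.2% (12.4 to 16.4) of shared peaks. In HNF4A peaks outside FOXA1 peaks it was in 12.5% (12.2 to 12.9), an overlapping interval. In the same order, AP-1 sites near this summit were in 16.2% and 9.91%. Forkhead cores were in 4.80% (3.72 to 6.19) and 1.44% (1.32 to 1.57). Forkhead letters were thus less frequent in shared peaks than at FOXA1dbd summits in other FOXA1 peaks. They were more frequent than at summits of HNF4A peaks outside FOXA1 peaks. That set lacks FOXA1 peaks by definition and every shared peak is one, so no conclusion on forkhead letters is drawn from it. HNF4A summits at FOXA1 peaks without FOXA1dbd were not compared. In the central 200 bp that class held a forkhead core in 17.3%, beside 13.7% of shared peaks. The part of GC content in these summit shares was not tested.

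The variants that played no part in the selection were then compared. FOXA1nhaa overlapped 841 shared peaks (65.0%, 62.4 to 67.5). It overlapped 58.9% (58.3 to 59.5) of the FOXA1 peaks with FOXA1dbd and not HNF4A, 40.7% (38.1 to 43.4) of those with HNF4A and not FOXA1dbd, and 39.7% of all FOXA1 peaks. The differences were 6.06 points (3.35 to 8.68) and 24.3 points (20.5 to 28.0). FOXA1nhaa overlap rose with the FOXA1 score in every class, so score quintiles of the whole FOXA1 list were compared, a step chosen after the data were seen. From the lowest to the highest quintile the share of shared peaks was 43.0%, 51.1%, 59.5%, 69.0% and 78.2%. In the FOXA1dbd class it was 36.3%, 42.7%, 49.8%, 59.3% and 75.2%, and the intervals were apart in quintiles 3 and 4. In the class with HNF4A and not FOXA1dbd it was 26.4%, 32.4%, 44.96%, 46.4% and 62.3%, and the intervals were apart from those of the shared peaks in every quintile. Peak width also differed, with medians of 388 bp in shared peaks, 390 bp in the FOXA1dbd class, 284 bp in the class with HNF4A and not FOXA1dbd and 300 bp in all FOXA1 peaks, and its part in these shares was not tested.

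**Figure D5:**
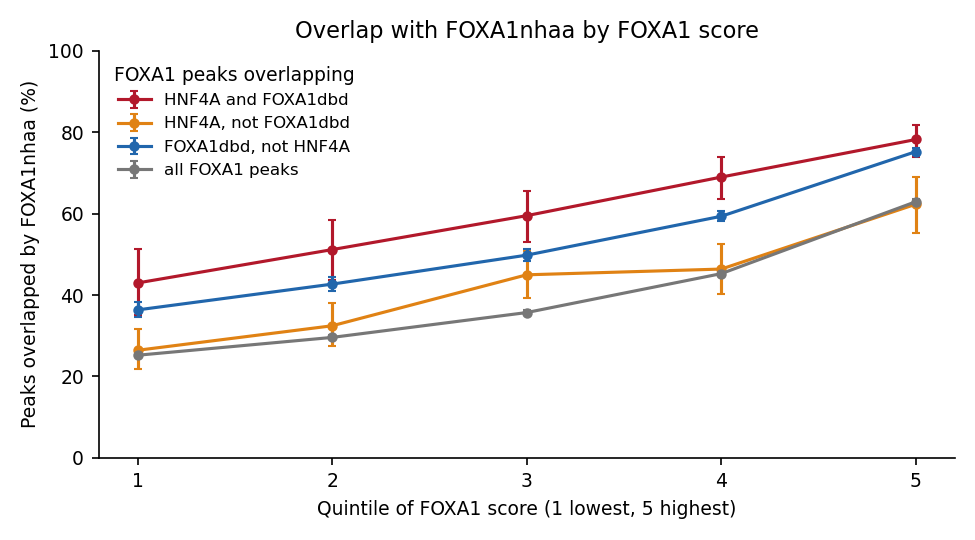
Share of FOXA1 peaks overlapped by FOXA1nhaa (%, vertical) by quintile of the FOXA1 score over the whole list (horizontal), for 4 sets of FOXA1 peaks, with 95% Wilson intervals. The peaks shared with HNF4A and FOXA1dbd rise from 43.0% to 78.2% and lie above the other sets in each quintile.

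The FOXA1rraa list repeats rows of other lists, which sets what its overlap can show. FOXA1rraa overlapped 869 shared peaks (67.2%, 64.6 to 69.7), beside 65.7% in the FOXA1dbd class, 37.6% in the class with HNF4A and not FOXA1dbd and 39.9% of all FOXA1 peaks. The difference from the FOXA1dbd class, 1.48 points, had an interval from -1.19 to 4.05. In 204 shared peaks the overlap rested only on FOXA1rraa rows copied from the FOXA1 list. Without such rows FOXA1rraa overlapped 665 (51.4%, 48.7 to 54.1), beside 47.2%, 23.9% and 25.0%. All 697 of the remaining FOXA1rraa rows at shared peaks were also rows of the FOXA1nhaa list, so every one of the 665 was a FOXA1nhaa overlap too. FOXA1nhaa alone overlapped a further 176 shared peaks, and 453 had neither when the FOXA1 rows were left out. Shared peaks with an AP-1 site were overlapped by FOXA1nhaa in 60.3% (55.04 to 65.3) and those without in 66.7% (63.6 to 69.6).

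Most shared peaks lay away from promoters, as did most FOXA1 peaks. The midpoint was in an intron in 876 (67.7%) and between genes in 328 (25.3%), beside 70.8% and 22.1% of all FOXA1 peaks. It was in a non-coding part of an exon in 80 (6.18%) and in a coding exon in 10 (0.773%). Over all FOXA1 peaks these shares were 6.32% and 0.770%. A transcription start lay within 1000 bp of the midpoint in 181 shared peaks (14.0%, 12.2 to 16.0). That share was 19.2% (17.2 to 21.5) in the class with HNF4A and not FOXA1dbd, 9.17% (8.82 to 9.53) in the class with FOXA1dbd and not HNF4A and 8.87% in all FOXA1 peaks. The differences were -5.25 points (-8.10 to -2.40) and 4.82 points (2.999 to 6.84). AP-1 sites were in 25.4% (19.6 to 32.2) of the shared peaks near a start and 26.9% (24.3 to 29.5) of the others. In the class with HNF4A and not FOXA1dbd these shares were 8.30% and 18.3%. Chromosome X held 1 shared peak (0.0773%), beside 1.43% of FOXA1 peaks, 1.08% of HNF4A peaks and 0.385% of FOXA1dbd peaks. Neighbouring shared peaks were a median of 1.04 Mb apart, with 28 pairs within 10 kb.

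The site with the highest FOXA1 score was in an intron of AXL, a receptor tyrosine kinase, printed above (peak chr19:41731271-41731873). Its FOXA1 score was 751, its HNF4A −log10 q 25.6 with a fold enrichment of 10.7, and its FOXA1dbd −log10 q 19.9 with a fold enrichment of 10.7. FOXA1nhaa was present with a fold enrichment of 5.78. The HNF4A summit stood 424 bp from the FOXA1dbd summit and, at 396 bp from the FOXA1 midpoint, beyond the end of the FOXA1 row. An intron of RALGPS1 near ANGPTL2 (chr9:129892918-129893804) had a FOXA1 score of 674 and an AP-1 site, with summits 6 bp apart. The next were a site 277 bp from the start of DUSP11, an RNA phosphatase (chr2:74007160-74007912, score 671, with repeated forkhead letters), and an intron of LINC02937 near AUH (chr9:93959479-93959857, score 666). RIN3, a guanine nucleotide exchange factor of the endosomal Rab5 group, held a site with a score of 635 and summits 15 bp apart (chr14:93113279-93114058). All 5 were overlapped by FOXA1nhaa, as were 78.2% of shared peaks and 62.9% of all FOXA1 peaks in the highest FOXA1 score quintile.

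The 10 sites with the highest value of the lowest of their 3 list percentiles are named next. The site near EVA1A, also printed above (peak chr2:75830001-75830379), stood at percentile 92.2 of the FOXA1 list by score (311), 97.1 of the HNF4A list (−log10 q 53.6, fold enrichment 17.0) and 92.7 of the FOXA1dbd list (13.2, fold enrichment 8.31). The next was between genes near TLN2, which encodes the adhesion protein talin-2 (chr15:63220222-63220720, lowest percentile 91.5), and FOXA1nhaa did not overlap it. RHOBTB3 held the site with the highest HNF4A value of this group (chr5:95068127-95069417, −log10 q 78.7, fold enrichment 19.6). The rest, with lowest percentiles from 86.2 to 90.7, included sites in RSRC1, MAST2, RIN3, AXL and ANKRD55 and near OSBPL3. Of the 10 sites, 8 were overlapped by FOXA1nhaa, 3 held an AP-1 site and 2 a forkhead core in the central 200 bp. As the naming rule and these percentiles require, all 10 were in the highest FOXA1 score quintile. There FOXA1nhaa overlapped 78.2% of shared peaks, and 24.4% of shared peaks held an AP-1 site.

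Of the 23 shared peaks with both forkhead and HNF4 letters, the 8 with the highest FOXA1 scores are named. The site near ADGRL2, a latrophilin receptor, had a FOXA1 score of 452, an HNF4A −log10 q of 14.4 and a FOXA1dbd −log10 q of 15.8, and its summits lay 34 bp apart. At the PARP15 intron the FOXA1 score was 282, the HNF4A −log10 q was 48.1 with a fold enrichment of 16.1, and the FOXA1dbd −log10 q was 6.20. This was the highest HNF4A value of the 8 named sites of the kind and the only one of them with the full HNF4 core. Another was in an intron of KMT2C, a histone H3 lysine methyltransferase (92 bp from an annotated transcript start inside the gene, score 385). The rest were in LMCD1-AS1 (380), a coding exon of the cGMP phosphodiesterase PDE5A (326), TMBIM6 (311), near ZIC4 (310) and PTPN2, a tyrosine phosphatase (279). From KMT2C on, the HNF4A −log10 q values of these sites ran from 6.78 in TMBIM6 to 12.3.

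Some genes held several shared peaks. PALMD, which encodes palmdelphin, had 4 among its 10 FOXA1 peaks in the gene body or within 10 kb, 5 HNF4A peaks and 4 FOXA1dbd peaks there, in a gene of 48.4 kb. The scaffold ligase gene SH3RF1 had 4 of 44 and the cytoskeletal linker gene DST 4 of 149. IQCJ-SCHIP1 had 4 of 76, and RUNX1, a runt-domain transcription factor, 4 of 110. Those with 3 included DOP1A, VEGFC, SUSD1, CAB39L, CERS6, SPATA13 with the overlapping gene ENSG00000273167, MAML2, SAMD12, RERE, DLC1 and PTPRM. VEGFC encodes a lymphatic growth factor and MAML2 a Notch coactivator. Over all 20136 protein-coding genes 924 (4.59%) had a shared peak, and their median length was 112.6 kb beside 27.2 kb for all genes, so long genes held more.

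Gene lists were read against that share of 4.59%. None of 33 hepatocyte genes and none of 18 liver and endoderm transcription factor genes had a shared peak. Of these, 20 and 12 had a FOXA1 peak, 15 and 10 an HNF4A peak and 10 and 4 a FOXA1dbd peak. Of all 20136 protein-coding genes, 13661 had a FOXA1 peak, 14004 an HNF4A peak and 7913 a FOXA1dbd peak. None of 10 AP-1 subunit genes had a shared peak either. Shared peaks were found at 5 of 30 fibroblast and matrix genes, 3 of 18 TGF-beta pathway genes, 3 of 22 genes of the actin cytoskeleton and focal adhesions, 2 of 14 YAP and TEAD targets and 2 of 21 fibroblast transcription factors. The lists are short and differ in gene length (median 20.3 kb for hepatocyte and 42.1 kb for matrix genes), so no difference between them was tested.

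Among matrix genes the shared peak closest to a start was at LUM, which encodes the collagen-binding proteoglycan lumican (chr12:91504739-91505986). Its midpoint was 92 bp from the LUM start, its FOXA1 score 369, its HNF4A −log10 q 24.8 with a fold enrichment of 9.46, and its FOXA1dbd −log10 q 6.01. The collagen V genes each had one, COL5A2 with a FOXA1 score of 364 and a forkhead core and COL5A1 with 174. FBN1, the gene of the microfibril protein fibrillin-1, had 2 intronic sites with scores of 80 and 161, and a site at ACTA2, the smooth muscle actin gene, had a score of 141. In the TGF-beta pathway the receptor gene TGFBR2 held the highest values (chr3:30699544-30701174, FOXA1 score 306, HNF4A −log10 q 21.4, FOXA1dbd −log10 q 15.1). The inhibitory SMAD7 (score 161) had an AP-1 site, and INHBA, which encodes an activin subunit, had a score of 215. At focal adhesion genes the shared peaks of PXN (paxillin, score 241, with an AP-1 site) and ITGAV (integrin alpha V, score 206, with a half-site) were intronic. They lay 818 and 914 bp from an annotated transcript start of their gene. That of LPP (score 190) was intronic too. TEAD1 had 2 (scores 166 and 173), the second with an HNF4A −log10 q of 2.01. The 4 RUNX1 sites had scores from 132 to 265, and FOXO3, itself a forkhead gene, had one of 79.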

How the data were processed

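HALO-tag ChIP-seq peak lists of 5 constructs in BJ cells were analysed, 1 list per construct. Whether peaks were called on single or pooled libraries, and how the inputs were used, is not given in the sources used here. Per the submitters' processing notes, the tools were Bowtie2 2.3.4.1, Picard, GATK 4.2.6.0, bedtools 2.27.1, MACS2 2.2.7.1 and deepTools 3.5.0 with hg19, with no role given. The deposited FOXA1 list holds a score per peak. The other deposited lists add a fold enrichment (a ratio), −log10 p-values and −log10 q-values, and a summit, all from the authors' peak caller. The files have no headers and give no counts, so depth is unknown. Rows were used as deposited, except that rows of a list with the same coordinates were kept once. This took the FOXA1dbd list from 28850 rows to 28831 and left the other lists unchanged. FOXA1rraa rows with the coordinates and peak-name prefix of FOXA1 rows were counted apart.

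Peaks overlapping by at least 1 bp were joined in Python 3.11.15 (pandas 2.3.3, pysam 0.24.0). Where a peak had several overlapping rows, the row with the highest −log10 q was used. Summits beyond their row were replaced by midpoints. Motifs were searched in GRCh37 without mismatch in 200 bp around the FOXA1 midpoint, and genes came from GENCODE 44 lifted to GRCh37. A start was that of any annotated transcript, so the start nearest to a site can lie inside the gene. The code was tested on simulated overlaps and planted motifs. Shares have 95% Wilson intervals. The limit for a count of 0 is 3 counts of the total.

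The shared peaks, gene lists, motifs and naming rule were chosen with earlier results of these data known. Named sites were the 10 with the highest value of the lowest of 3 list percentiles, the 5 with the highest FOXA1 score, up to 8 by score with forkhead and HNF4 letters, and those with the smallest overlaps. Genes with at least 3 shared peaks, and genes of the lists, were also named. Sequences from chromosome 8 were not printed, and 1 site chosen by the rule is not reported here. GC bins, score quintiles, reversed letters and distances of 50 bp from summits were added after the data were seen.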

Additional observations from a re-analysis of the deposited data

How the results depend on the processing

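No paired analysis was possible because there is only 1 peak list for every construct, without replicate numbers, so a replicate could not be dropped either. Of 61 values under other settings, 38 stayed within the counting error of the main value (or within 1.5 times for the number of peaks) and 23 moved. Rows joined by peak name (1299 shared peaks), FOXA1dbd rows with the prefix IP1 only (1197) and chromosomes 1 to 22 (1293) moved none. These settings change the set of peaks little, so their many unmoved values among the 38 say little about stability. With an overlap of 50% of the shorter peak, the AP-1 share was 30.2% and the summit distance 95 bp. With centres within 200 bp, which bounds that distance, there were 823 shared peaks, with an AP-1 site in 33.5% and a summit distance of 85 bp. The variants were held to the same rule in place of overlap. A FOXA1nhaa centre lay within 200 bp in 52.9% and a FOXA1rraa centre in 53.1%. In the top 50% of each list there were 286 shared peaks, with a forkhead core in 20.6%, a half-site in 14.3% and a summit distance of 169.5 bp. The variant lists were cut to their top 50% too, and FOXA1nhaa then overlapped 46.9% and FOXA1rraa 50.3%. Without its rows that are FOXA1 rows FOXA1rraa overlapped 51.4%. Within 2500 bp of a start lay 26.9%, and within 1000 bp of a protein-coding start 9.35%. In the central 100 bp the shares were 7.496% for forkhead, 6.03% for the half-site and 14.9% for AP-1. Around the FOXA1dbd summit AP-1 was in 31.0%, and around the HNF4A summit AP-1 was in 30.5%, forkhead in 8.11% and the half-site in 21.5%. The cause of these moves was not tested.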
